A study of Pinus pinaster with 66 samples.

Results

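Transcripts of a pair of isoprenoid enzymes were followed in the needles of maritime pine (Pinus pinaster) through a year, namely geranylgeranyl diphosphate synthase (spot Q10C3) and 3-hydroxy-3-methylglutaryl synthase (spot Q19M11). They are 2 of the 8208 spots of the array, chosen for their place in isoprenoid synthesis by the descriptions given to the spots. Both had a value on all 66 arrays. The study had listed each enzyme for its correlation with a variable on these same arrays, Q10C3 with the whorl and Q19M11 with rainfall, which has 1 value a month. Differences of Q10C3 between whorls and of Q19M11 between months are therefore given as a description, with no test. Tests were made for Q10C3 between months, for Q19M11 between whorls, and for the way the young needles changed against the older ones. These are not wholly independent of the choice, since a close correlation with the whorl or with a monthly value leaves less room for differences of the other kind.

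All isoprenoids are built from the same small phosphorylated units, which plants make by a mevalonate pathway outside the plastids and by a separate pathway inside them. Hydroxymethylglutaryl synthase acts near the start of the mevalonate pathway, where it joins acetyl-CoA to acetoacetyl-CoA, and this pathway feeds the synthesis of sterols and other products. Geranylgeranyl diphosphate synthase is not a step of that pathway. It acts after the units are made, by whichever pathway, and extends the chain to geranylgeranyl diphosphate. This is the precursor of carotenoids, of the phytol tail of chlorophyll, of gibberellins and of the diterpene resin acids for which conifers are known.

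The needles came from the same 6 field-grown trees, 20 to 25 years old and without any treatment, at 1245 m of altitude in southern Spain, and were all harvested in 2012. A whorl is the needle growth of 1 year, so Whorl 0 holds the needles of 2012, Whorl 1 those of 2011, Whorl 2 those of 2010 and Whorl 3 those of 2009. Whorl 0 was taken in May, July, September and November and Whorls 1 to 3 also in January and March, which gives 22 groups of 3 arrays. RNA was pooled from 2 trees for each array, labelled with Cy3 and hybridised against a Cy5-labelled pool of January needles, the common reference. The trees are the same in every group, and the fit counted every array as independent. Every whorl was sampled from all 6 trees, so arrays of different whorls share trees. A comparison over several whorls thus has fewer independent units than arrays. The p-values rest on the spread between arrays within a group and not on that between forests or years.

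Each value is a log ratio of the needles to the January pool, normalized between arrays by the authors, and the median of every array was 0. The base of the logarithm is not stated and was taken as log2. Values above 0 are taken to mean more transcript in the needles than in the pool. This direction is likely but rests only on the signs that the study lists for its correlations. Arrays held between 6519 and 8076 spots with a value. Replicate 2 of November Whorl 2 was set aside, as the study's network analysis did. This left 65 arrays, with 2 in that group. Spot names were paired with a gene only for the spots the study describes, so the other enzymes of the pathway were not analysed here, nor was the tissue checked against markers. A spot of cDNA can also bind transcripts of closely related genes, which was not tested, and a ratio to a pool of the same spot allows no comparison of level between the enzymes.

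Transcripts of geranylgeranyl diphosphate synthase Q10C3 were highest in the young needles of Whorl 0 and lower with each older whorl. The whorls kept the order 0, 1, 2, 3 in each of the 4 months with a Whorl 0, and the order 1, 2, 3 in all 6 months. Averaged over the months, the log2 ratio of Q10C3 was 0.98 in Whorl 0 (4 months), 0.20 in Whorl 1, -0.12 in Whorl 2 and -0.40 in Whorl 3.

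In Whorl 0, the log2 ratios of Q10C3 in replicates 1 to 3 were 0.68, 0.69 and 0.78 in May, 1.04, 1.11 and 1.31 in July, then 1.37, 1.49 and 1.32 in September, and 0.35, 0.79 and 0.88 in November. All 12 arrays of young needles were above the January pool, and the arrays of July and September were all above those of May. The lowest value was that of November replicate 1, which stood below its companions.

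In Whorl 1, Q10C3 had 0.23, 0.24 and 0.15 in January, 0.11, 0.42 and 0.30 in March, 0.07, 0.85 and 0.48 in May, -0.44, -0.24 and -0.03 in July, then 0.11, 0.39 and 0.92 in September, and -0.03, 0.02 and 0.01 in November. July was the only month with all 3 arrays below the pool, and the replicates were spread widest in May and September, in which the arrays overlapped those of January and March.

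In Whorl 2, Q10C3 had -0.42, -0.28 and -0.28 in January, -0.25, 0.03 and -0.44 in March, 0.70, 0.35 and 0.02 in May, -0.67, -0.34 and -0.41 in July, and -0.21, 0.36 and 0.61 in September. In November, replicates 1 and 3 had -0.34 and -0.28, and the array left out had -0.51. May was the single month in which every array of Whorl 2 was above the pool.

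In Whorl 3, Q10C3 had -0.74, -0.55 and -0.48 in January, -0.22, -0.29 and -0.19 in March, -0.26, -0.42 and -0.34 in May, -0.75, -0.60 and -0.53 in July, then -0.37, 0.19 and 0.19 in September, and -0.60, -0.76 and -0.49 in November. September replicates 2 and 3 were the only arrays of the oldest needles above the pool. The plot of values by month shows the same arrays.

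**Figure D1:**
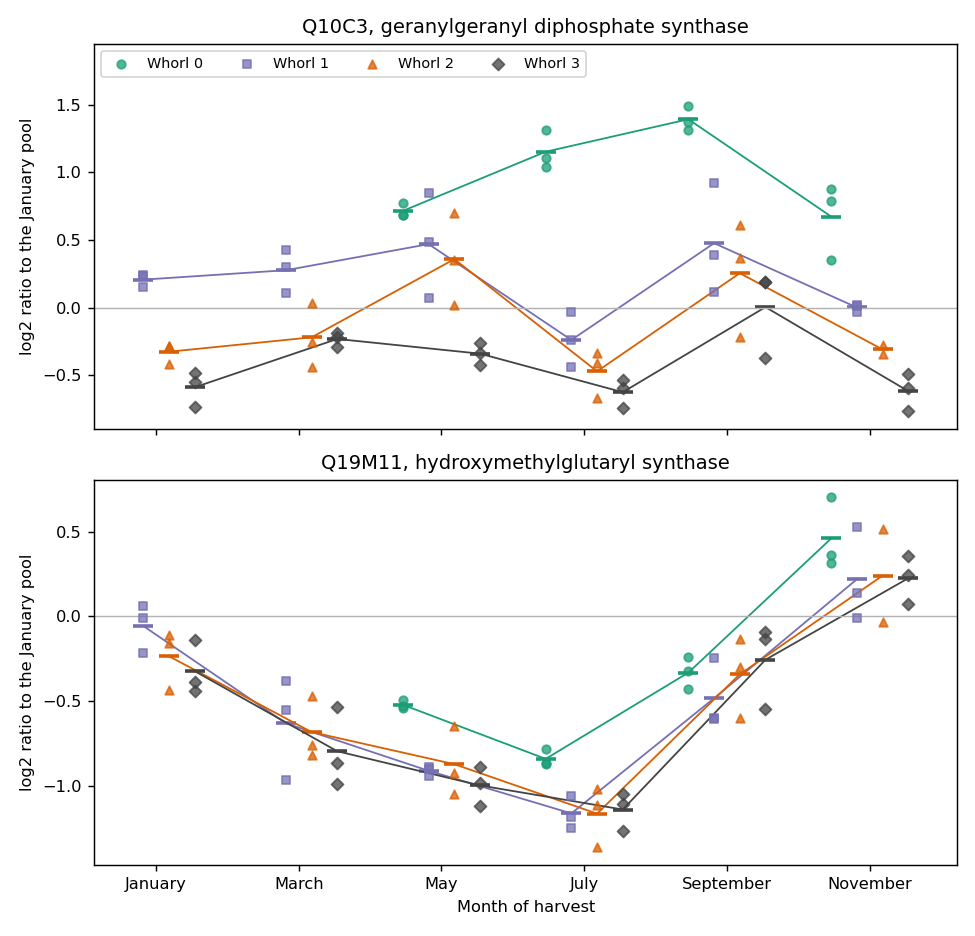
Log2 ratio to the January pool of geranylgeranyl diphosphate synthase Q10C3 (top) and hydroxymethylglutaryl synthase Q19M11 (bottom) by month of harvest, with a point for each array, a bar at the mean of each group and lines joining the means of a whorl. The group means of Q10C3 follow the order of needle age in each month, though arrays of neighbouring whorls overlap in places, with Whorl 0 between 0.35 and 1.49. Those of Q19M11 follow the months and lie close together in Whorls 1 to 3, with means near -1.16 in July and 0.23 in November. Whorl 0 stands above them in May and July.

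Averaged over Whorls 1 to 3, Q10C3 transcript was highest in May and September and lowest in July. In Whorl 3 the mean of May (-0.34) was below that of March (-0.23). Its July mean (-0.63) lay close to those of November (-0.62) and January (-0.59). July was tested only against its neighbours May and September. The mean log2 ratio over Whorls 1 to 3 was -0.24 in January, -0.06 in March, 0.16 in May, -0.45 in July, then 0.24 in September and -0.31 in November. July minus May was -0.61 ± 0.10 (SE, adjusted p = 6.24e-06), in a comparison in which 34.3% of all spots tested were called in either direction, and 1.38% of them had a larger absolute difference than Q10C3. September minus July was 0.69 ± 0.10 (adjusted p = 1.71e-07, with 44.8% of spots called and 3.11% moving further), and November minus September was -0.55 ± 0.11 (adjusted p = 1.83e-05, with 58.6% of spots called and 5.84% moving further). These are moderated differences from limma over all 22 groups, adjusted by Benjamini-Hochberg over all spots tested in the comparison, and an adjusted p under 0.05 was taken as a call.

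The steps of Q10C3 at the start of the year did not pass in the fit without a replicate block. March differed from January by 0.18 ± 0.10 (adjusted p = 0.178, with 31.6% of spots called) and May from March by 0.22 ± 0.10 (adjusted p = 0.0562, with 59.4% of spots called). With the replicate number as a block, May against March passed (adjusted p = 0.0332, between 0.0332 and 0.208 over 10 alternatives). March against January passed with only the arrays compared (adjusted p = 0.0324) and after quantile normalization (0.27, adjusted p = 0.0379), between 0.0324 and 0.541 over 10 alternatives. Over the whole of the warm months (May, July and September) Q10C3 averaged -0.01, against -0.20 in the cold months (January, March and November). This difference of 0.19 ± 0.06 (adjusted p = 0.00404) stood in a comparison that called 74.8% of spots, and 33.9% of spots moved further. Of the warm months, May and September were above the mean of the cold months and July was below it, and 14 of 27 warm arrays were above the mean of the cold ones. The call was lost when replicate 2 of every group was left out (adjusted p = 0.0742) and when replicate 3 was (adjusted p = 0.0877), and over the 10 alternatives its adjusted p lay between 0.000119 and 0.0877.

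The young needles had no low level of Q10C3 in July. From May to September the group means of Whorl 0 were 0.72, 1.15 and 1.39, and November had 0.67. November minus September was -0.72 ± 0.18 (adjusted p = 0.00124, with 37.3% of spots called and 3.45% moving further), and -0.45 after quantile normalization (adjusted p = 0.0499, the highest of the 10 alternatives, of which the lowest was 0.000361). July differed from May by 0.44 ± 0.18 (adjusted p = 0.0605, with 25.4% of spots called) and September from July by 0.24 ± 0.18 (adjusted p = 0.378, with 22% of spots called), and neither passed. The first of these passed with the replicate number as a block (adjusted p = 0.0332) and under 3 of 10 alternatives in all, over which its adjusted p ran between 0.00351 and 0.441.

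The distance between young and old needles in Q10C3 transcript was wider in July than in May. Whorl 0 minus the mean of Whorls 1 to 3 was 0.55 ± 0.14 for Q10C3 in May, 1.60 ± 0.14 in July, then 1.15 ± 0.14 in September and 0.98 ± 0.15 in November (SE). In July 0.523% of spots had a larger absolute difference, and after quantile normalization the difference of May was 0.30. The change of this difference was 1.05 ± 0.20 in July against May (adjusted p = 8.04e-05, limma, with 21.7% of spots called and 3.18% changing more). Its test is not wholly independent of the choice of Q10C3 for whorl, which used the same arrays. In July the mean of the older needles was lower than in May and that of the young ones higher. The later changes did not pass, at -0.45 ± 0.20 in September against July (adjusted p = 0.197, with 8.1% of spots called), -0.17 ± 0.20 in November against September (adjusted p = 0.987, with 0.711% of spots called) and 0.43 ± 0.20 in November against May (adjusted p = 0.110, with 30% of spots called).

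Array by array, the Whorl 0 values of Q10C3 lay between 1.04 and 1.31 in July, against -0.75 to -0.03 in the 9 arrays of older needles. In September they lay between 1.32 and 1.49, against -0.37 to 0.92 in older needles, and in November between 0.35 and 0.88, against -0.76 to 0.02 in 8 arrays of older needles. No array of young needles overlapped the older ones in these months, a separation upward that 13.5% of all spots had in July, 5.21% had in September and 3.82% had in November. In May the young needles had 0.68 to 0.78, against -0.42 to 0.85 in older needles, and the groups overlapped through Whorl 1 replicate 2 and Whorl 2 replicate 1.

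**Figure D2:**
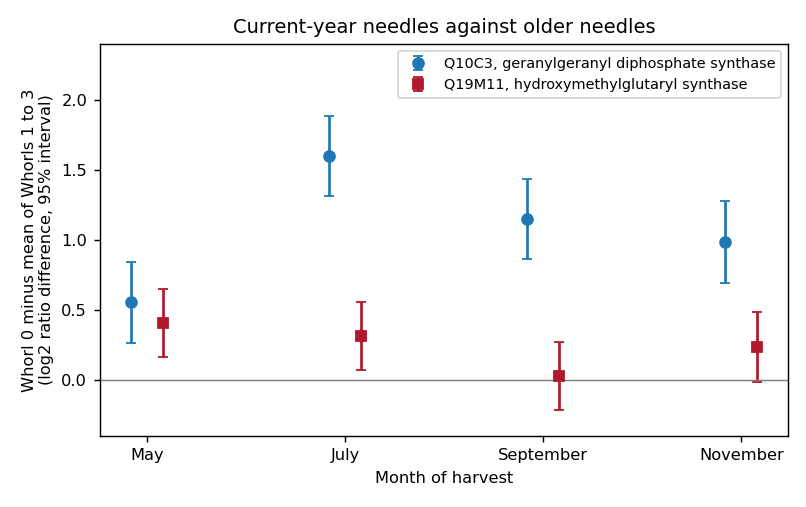
Difference in log2 ratio between Whorl 0 and the mean of Whorls 1 to 3 in each month with a Whorl 0, with 95% intervals from the fit over all groups, for geranylgeranyl diphosphate synthase Q10C3 (circles) and hydroxymethylglutaryl synthase Q19M11 (squares). The Q10C3 difference was 0.55 in May and 1.60 in July, while that of Q19M11 was 0.41 in May and lower in the other months.

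Among the older whorls, the size of the steps of Q10C3 varied between months. Whorl 1 minus Whorl 2 was between 0.11 in May and 0.53 in January, and Whorl 2 minus Whorl 3 between 0.01 in March and 0.70 in May. Whorl 1 was above the mean of Whorls 2 and 3 by 0.46 ± 0.06 (SE, mean over 6 months), and Whorl 3 differed from Whorl 2 by -0.28 ± 0.07. Whorl 1 minus Whorl 3 was smallest in July, at 0.39, and largest in May, at 0.81. The spacing of these whorls was not shown to depend on the month (F = 1.21 for month by whorl, adjusted p = 0.596, with 8.05% of spots called).

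Set in the order of needle age, Q10C3 had a lower mean in January of a whorl than in November of the next younger one. The January mean of Whorl 1 minus the November mean of Whorl 0 was -0.47, that of Whorl 2 minus Whorl 1 was -0.33 and that of Whorl 3 minus Whorl 2 was -0.28. Within the year 2012, the November mean of Whorls 1 to 3 lay close to that of January, differing by -0.07. The whorls were all sampled in the same year, so an age series made in this way joins needles of different years of growth and is not 1 whorl followed over time.

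**Figure D3:**
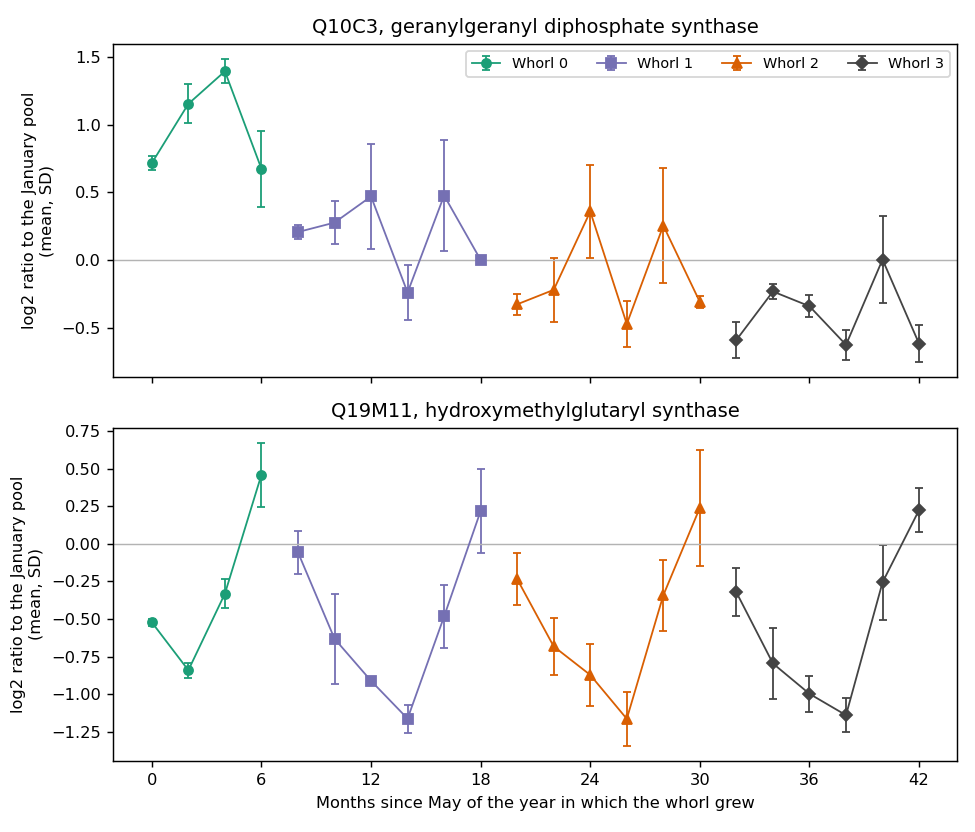
Mean log2 ratio to the January pool with SD over the arrays of each group, set by the months since May of the year in which the whorl grew, for geranylgeranyl diphosphate synthase Q10C3 (top) and hydroxymethylglutaryl synthase Q19M11 (bottom). For Q10C3, January of the next older whorl minus November of a whorl is -0.47, -0.33 and -0.28. For Q19M11 these steps are -0.52, -0.45 and -0.56. Both months are of the same year of harvest, with January first, so the steps follow no whorl over a winter. Q19M11 has a like yearly course in every whorl and is higher in November than in January within each older whorl.

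Hydroxymethylglutaryl synthase Q19M11 followed the months in much the same way in all whorls. The mean log2 ratio over Whorls 1 to 3 was -0.20 in January, -0.70 in March, -0.93 in May, -1.16 in July, then -0.36 in September and 0.23 in November, with the lowest level in July and the highest in November. Averaged over the months, Q19M11 had -0.31 in Whorl 0 (4 months), -0.50 in Whorl 1, -0.51 in Whorl 2 and -0.55 in Whorl 3.

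In Whorl 0, Q19M11 had -0.53, -0.54 and -0.49 in May, -0.78, -0.87 and -0.87 in July, then -0.43, -0.32 and -0.24 in September, and 0.36, 0.31 and 0.70 in November. The 4 months did not overlap, with July lowest and November the only month above the January pool.

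In Whorl 1, Q19M11 had 0.06, -0.22 and -0.01 in January, -0.38, -0.96 and -0.55 in March, -0.90, -0.94 and -0.89 in May, -1.18, -1.25 and -1.06 in July, then -0.60, -0.61 and -0.24 in September, and 0.14, -0.01 and 0.53 in November. The arrays of July were below those of every other month, and March replicate 2 reached the level of May.

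In Whorl 2, Q19M11 had -0.16, -0.44 and -0.11 in January, -0.47, -0.76 and -0.82 in March, -0.65, -0.92 and -1.05 in May, -1.11, -1.36 and -1.02 in July, and -0.30, -0.60 and -0.13 in September. In November, replicates 1 and 3 had -0.03 and 0.51, and the array left out had 0.21. The values of July overlapped those of May through May replicate 3.

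In Whorl 3, Q19M11 had -0.14, -0.44 and -0.39 in January, -0.53, -0.99 and -0.87 in March, -1.12, -0.98 and -0.89 in May, -1.11, -1.26 and -1.05 in July, then -0.13, -0.54 and -0.09 in September, and 0.07, 0.25 and 0.36 in November. All 3 November arrays of the oldest needles were above the pool, and no array of any earlier month was.

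The steps of Q19M11 between months, a description, were -0.50 ± 0.09 in March against January, -0.22 ± 0.09 in May against March, -0.23 ± 0.09 in July against May, 0.80 ± 0.09 in September against July and 0.59 ± 0.09 in November against September (SE, Whorls 1 to 3). The steps into May and July were smaller under some alternatives, where May minus March was -0.12 without replicate 1 of every group and July minus May was -0.08 ± 0.09 after quantile normalization. In Whorl 0 the steps were -0.32 ± 0.15 in July against May, 0.51 ± 0.15 in September against July and 0.79 ± 0.15 in November against September. The warm months minus the cold months gave -0.59 ± 0.05 in Whorls 1 to 3, with 24 of 27 warm arrays below the mean of the cold ones. November minus January was 0.43 for Q19M11 in these whorls, against -0.07 for Q10C3.

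Q19M11 was higher in the young needles in May and July. In May, Whorl 0 was higher than the mean of Whorls 1 to 3 by 0.41 ± 0.12 (SE, adjusted p = 0.00467), in a comparison in which 52.3% of spots were called and 22.7% differed more. In July it was higher by 0.31 ± 0.12 (adjusted p = 0.0394, with 35% of spots called and 16.4% differing more). The call of July was lost without replicate 1 of every group (adjusted p = 0.137), without replicate 2 (adjusted p = 0.217) or after quantile normalization (0.20, adjusted p = 0.283), and its adjusted p over 10 alternatives ran between 0.00778 and 0.283. In September the difference was 0.03 ± 0.12 (95% interval -0.22 to 0.27, adjusted p = 0.926, with 7.4% of spots called) and in November 0.23 ± 0.12 (95% interval -0.02 to 0.48, adjusted p = 0.411, with 4.16% of spots called).

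In May the young needles had -0.54 to -0.49 for Q19M11, against -1.12 to -0.65 in the 9 arrays of older needles, and in July -0.87 to -0.78, against -1.36 to -1.02. The young needles were above all older arrays in both months, a separation upward that 21.7% of all spots had in May and 13.5% had in July. In September young needles had -0.43 to -0.24, against -0.61 to -0.09 in older needles, and in November 0.31 to 0.70, against -0.03 to 0.53, and both overlapped.

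The difference of Q19M11 between young and old needles was not shown to change over the season. Its change was -0.09 ± 0.17 in July against May (adjusted p = 0.794), -0.29 ± 0.17 in September against July (adjusted p = 0.380), 0.20 ± 0.17 in November against September (adjusted p = 0.911) and -0.17 ± 0.17 in November against May (adjusted p = 0.491). These are the comparisons given above for Q10C3, with the same shares of spots called, and a loss of the difference after July was not shown.

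Among the older whorls, no difference of Q19M11 was detected. Whorl 1 differed from Whorls 2 and 3 by 0.02 ± 0.05 (95% interval -0.08 to 0.13, adjusted p = 0.874, with 6.27% of spots called), and Whorl 3 minus Whorl 2 was -0.04 ± 0.06 (95% interval -0.16 to 0.09, adjusted p = 0.811, with 2.69% of spots called). The month by whorl term had F = 0.72 (adjusted p = 0.873). A spot listed for a close relation with a monthly value can show little spread between whorls, so these values are no independent evidence that the older whorls were alike.

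In the order of needle age, Q19M11 also had a lower mean in January of a whorl than in November of the next younger one. January minus November was -0.52 for Whorl 1 against Whorl 0 and -0.45 for Whorl 2 against Whorl 1. It was -0.56 for Whorl 3 against Whorl 2. These differences were no smaller in size than those of Q10C3. Both months belong to the same year of harvest, in which January came first, so no whorl was followed over a winter. The steps of Q19M11 therefore do not show a fall and a recovery, since November was above January within each older whorl. For Q19M11, November minus January was 0.27 in Whorl 1, 0.48 in Whorl 2 and 0.55 in Whorl 3. For Q10C3 the same differences were -0.21, 0.02 and -0.03.

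The variance between the 18 group means of Whorls 1 to 3 was split by month and whorl. For Q10C3 the month held 46.8%, the whorl 45.3% and the remainder, month by whorl, 7.81%. For Q19M11 the month held 97.8%, the whorl 0.173% and the remainder 2.01%. Over 7276 spots the medians were 79.2% for the month, 3.36% for the whorl and 15.4% for the remainder. The remainder also holds the noise of the group means. The study's choice of these spots for whorl and rain used the same means, so these shares are a description, in which 0.371% of spots had a larger share for the whorl than Q10C3 and 0.66% a larger share for the month than Q19M11. With Whorl 0 included, in 4 months, the whorl held 73.1% for Q10C3 and 4.05% for Q19M11.

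Across all 22 groups, Q10C3 spanned 2.02 on the log2 scale, from 1.39 in September Whorl 0 down to -0.63 in July Whorl 3. In the order of the means, July Whorl 0 came next at 1.15 and May Whorl 0 after it at 0.72, and these were the only 2 of 21 neighbouring pairs whose arrays did not overlap. Q19M11 spanned 1.62, from 0.46 in November Whorl 0 down to -1.16 in July Whorl 2, and all 21 neighbouring pairs overlapped. Neighbours in so long an order lie close together, so their overlap does not show that the groups form a gradual series. Within Whorl 0 the months of Q19M11 did not overlap, while for Q10C3 the arrays of May and November did. The median SD within a group was 0.139 for Q10C3 and 0.176 for Q19M11.

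No relation between the enzymes was detected. The study listed one spot for the whorl and the other for a monthly value, which leaves little room for a common course. These values are therefore no independent evidence that the enzymes are unrelated. The permutations below also treated arrays of different whorls as exchangeable, although the whorls share trees. Their group means had r = 0.0863 over 22 groups that share the reference pool and the trees. Within single months, r over the 8 or 9 arrays of Whorls 1 to 3 was 0.529 in January, 0.0724 in March, 0.541 in May, -0.072 in July, then -0.0625 in September and 0.0530 in November, with exact two-sided permutation p of 0.148, 0.849, 0.126, 0.854, 0.872 and 0.894. Spearman's rho was 0.383, 0.117, 0.367, -0.05, -0.1 and 0.0476 in the same months, with exact permutation p of 0.312, 0.776, 0.336, 0.912, 0.81 and 0.935. None of the 6 months passed after adjustment over the months (adjusted p between 0.445 and 0.894 for r and 0.935 throughout for rho, exact permutation tests). Without the 2 arrays farthest from the median of Q10C3, r was 0.425 in January, 0.470 in March, 0.406 in May, -0.375 in July, then 0.0364 in September and 0.367 in November. In the plot of group means of both enzymes, July and September Whorl 0 are high in Q10C3 and below 0 in Q19M11, and November Whorl 0 is the group that is high in both.

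**Figure D4:**
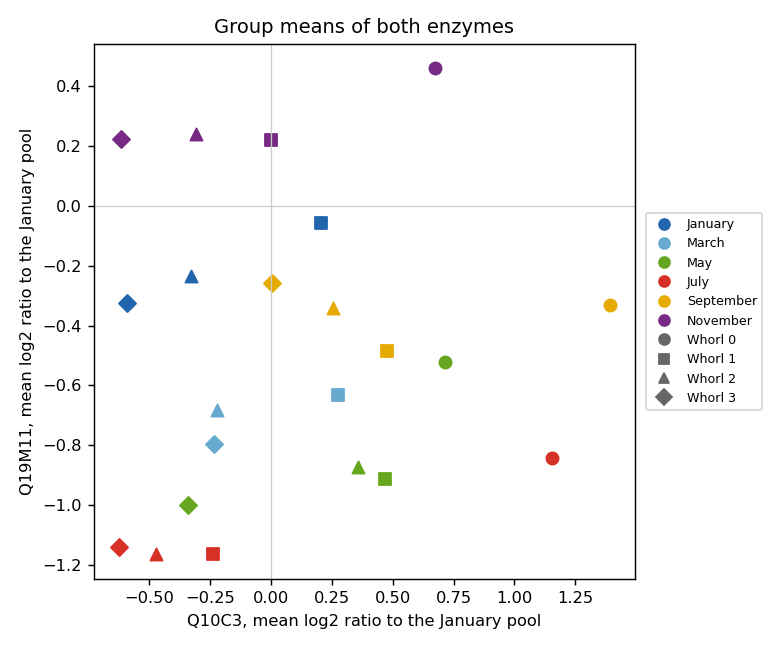
Mean log2 ratio of hydroxymethylglutaryl synthase Q19M11 against that of geranylgeranyl diphosphate synthase Q10C3 for the 22 groups, with colours for the month and symbols for the whorl. Whorls 1 to 3 of 1 month lie along rows at a like level of Q19M11 and are spread along the axis of Q10C3. Whorl 0 lies above their mean in Q19M11 by 0.41 in May, 0.31 in July and 0.23 in November. Over the groups, r was 0.0863.

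The spots most like Q10C3 over the 22 group means, among 7173 spots with a mean in every group, were Q12I18 (r = 0.942), Q11F14 (0.905), Q16I10 (0.900), Q13E1 (0.897) and Q13H1 (0.892), none with a description, and the least like it was Q4I23 (-0.884). Of 35 other spots that the study names, the closest were a protein-binding protein, Q16H14 (0.829), flavanone 3-hydroxylase Q15G15 (0.825), an enzyme of flavonoid synthesis, and a 40S ribosomal protein, Q17O7 (0.819). Nearest to Q19M11 were Q14I11 (0.969), Q16A9 (0.955), Q14H23 (0.950), the fatty acid desaturase Q11J18 (0.931) and Q20B23 (0.927), and the least like it was Q10L19 (-0.933). Of the named spots, aminoalcoholphosphotransferase Q15E22 (0.926), which acts in the synthesis of membrane phospholipids, and Q2I24 (0.891), with no description, followed the desaturase. Groups share the trees, the reference pool and the month, and the named spots were listed by the study on these arrays, so no test was made.

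In January the needles were set against a pool of January RNA, and neither enzyme averaged 0 there. The January mean was -0.24 ± 0.36 for Q10C3 and -0.20 ± 0.18 for Q19M11 (SD, n = 9 arrays of Whorls 1 to 3), with 3 and 1 of 9 arrays above 0. The level of the pool thus sets no exact zero for these spots, while differences between groups do not depend on it.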

How the data were processed

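Total RNA of needles, pooled from pairs of trees, was amplified, labelled and hybridised by the authors to a 2-colour cDNA array. The deposited values are log ratios, treated as log2, which the authors preprocessed and normalized between arrays with BABAR, a package for common reference designs. Raw intensities were not used. The labels give January as the source of the reference RNA, though a month field beside it differs in most samples, and January was taken. They also write 2012 beside every whorl, and the years of growth follow the sampling protocol. Groups follow the month and whorl of the labels. Every array has a median of 0, and its number of replicates, not a read depth, limits the precision. The members and lists were chosen with earlier results of these data known.

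Spots measured on 0.5 or more of the 65 arrays (7809 spots) and in each group compared were fitted with limma 3.58.1 (R 4.3.3). Each of the 22 groups had its own mean, variances were moderated, and p-values were adjusted by Benjamini-Hochberg with a threshold of 0.05. The fit was tried on simulated data with independent arrays, which does not test the effect of shared trees. Correlations used exact permutation tests (scipy 1.17.1, Python 3.11.15). Named beside the members are the 5 spots most like and the 1 least like each over the group means, and the 3 closest of those the study names. Alternatives were the array left out, quantile normalization, other filters on missing values, only the arrays compared, each replicate left out and the replicate number as a fixed or random block. Rainfall and temperature were not used.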

Additional observations from a re-analysis of the deposited data

Results flagged for a closer look

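The difference between Whorl 0 and the older needles in geranylgeranyl diphosphate synthase Q10C3 changed between May and July by a test of the change itself. That test is not wholly independent of the study's listing of the spot for the whorl. Whorl 0 minus the mean of Whorls 1 to 3 was 1.60 ± 0.14 in July and 0.55 ± 0.14 in May (SE), and the change of 1.05 ± 0.20 on the log2 scale passed the threshold (adjusted p = 8.04e-05, limma). As a description, for a spot that the study listed for its relation with the whorl, 3 of 3 arrays of young needles were above all 9 arrays of older needles in July, as at 13.5% of all spots, and 0 of 3 were in May, where 21.7% of all spots had this separation. The change passed under all 10 alternatives, between 0.82 and 1.11, with adjusted p between 5.64e-06 and 0.0165. In the main fit the other changes of this difference did not pass (adjusted p = 0.197 for September against July, 0.987 for November against September and 0.110 for November against May, limma). Nor did month by whorl in Whorls 1 to 3 (adjusted p = 0.596, moderated F test). The causes of the change between May and July were not tested.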

How the results depend on the processing

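Of 25 tested differences 8 passed, and 6 of them passed under every alternative, namely those of Q10C3 in Whorls 1 to 3 for July against May, September against July and November against September, in Whorl 0 for November against September (adjusted p up to 0.0499) and for the change of the Whorl 0 difference in July against May, and that of Q19M11 in Whorl 0 in May. No result changed with the array left out put back, without the filter on missing values, with only complete spots or with a random replicate block. After quantile normalization, Q10C3 passed for March against January (0.27, adjusted p = 0.0379) and for the change of the Whorl 0 difference in November against May (0.70, adjusted p = 0.00975), and its change in November against September turned to 0.11. Its Whorl 0 difference moved to 0.30 in May, 1.12 in July and 0.90 in September. For Q19M11, quantile normalization gave 0.20 for Whorl 0 in July (adjusted p = 0.283), -0.0095 in September, and 0.58 for September against July in Whorls 1 to 3. With only the arrays compared, Q10C3 passed for March against January (0.18, adjusted p = 0.0324) and for Whorl 0 in July against May (0.44, adjusted p = 0.00351). The causes were not tested.

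The same trees are in every group, and a caption of the study reads each replicate number as an individual, while each array is a pool of 2 trees and the pooling scheme was not used here. The numbers were therefore tried as a block and not made part of the fit. Of the pairs of same-numbered arrays of a month, 68 of 87 had deviations from their group means correlated above 0.1 (mean 0.279, lowest -0.291). A random block within month gave an SE of 0.12 for Q10C3 in July against May in Whorls 1 to 3. The fit without a block gave 0.10. With the number as a replicate block, Q10C3 passed for May against March (0.22, adjusted p = 0.0332) and for Whorl 0 in July against May (0.44, adjusted p = 0.0332), and no other call changed.

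Leaving out each replicate number in turn, Q10C3 ranged between 0.14 and 0.26 for warm against cold months (adjusted p up to 0.0877), between 0.39 and 0.48 for Whorl 0 in July against May (passing without replicate 1, adjusted p = 0.0277), and its change of the Whorl 0 difference between -0.61 and -0.23 in September against July (passing without replicate 1, adjusted p = 0.0326), between -0.44 and 0.17 in November against September, and between 0.29 and 0.56 in November against May (passing without replicate 1, adjusted p = 0.0255). The Whorl 0 difference of Q19M11 ranged between 0.26 and 0.38 in July and between -0.087 and 0.087 in September, and its change in July against May between -0.14 and 0.00053. The SE of a Whorl 0 difference in May, 0.14 for Q10C3 and 0.12 for Q19M11, limits what 3 arrays a group resolve.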
